A study of Mus musculus with 12 samples.

Results

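Cell adhesion in reprogramming cells was followed through 6 genes, namely the cadherins Cdh1, Cdh2, Cdh3, Cdh11 and Cdh13 and the epithelial adhesion gene Epcam. They were taken by symbol from a deposited expression table of 24098 genes, and all 6 were present and all 6 passed the filter on low values, which asked for 1 FPKM or more in any library and left 14178 genes. FPKM is a fragment count divided by transcript length and by the mapped fragments of the library, so levels of different genes can be set side by side per length. Levels were measured by mRNA-Seq in 12 libraries of mouse cells, 1 library per condition.

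The starting cells, D0, were mouse embryonic fibroblasts (MEFs) from mid-gestation embryos that carry EGFP behind the stop codon of Oct4, a reporter that the MEF-derived libraries share. MEFs were grown in serum-containing medium and infected with pMXs retroviruses for Oct4, Sox2, Klf4 and c-Myc (OSKM). Reprogramming took place without feeders or passaging, and the study's methods name mESC, KOSR or FF medium for it. FF medium contains LIF, bFGF, the GSK3 inhibitor CHIR99021 and ascorbic acid. D3 was the unsorted culture of day 3 after OSKM induction. On days 6 and 9 cells were sorted on Thy-1, a fibroblast surface protein, into the Thy-1- fractions D6T- and D9T- and the Thy-1+ fractions D6T+ and D9T+. On days 12 and 16 they were sorted on SSEA-1, a pluripotency-associated surface carbohydrate, into the SSEA-1+ fractions D12S+ and D16S+ and the SSEA-1- fractions D12S- and D16S-. The study takes the Thy-1- and SSEA-1+ fractions as the successful route and the others as the unsuccessful route. Reprogrammed iPSCs and ESD3 mouse embryonic stem cells (mESCs), an established line, served as end points. Per the labels both were kept in FF medium, where the study's methods name mESC or KOSR medium. Neither the number of embryos behind the MEFs nor that of clones behind the iPSCs is given in the sources used here.

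Cadherins are calcium-dependent adhesion proteins that bind the same or a related cadherin on the neighbouring cell, and the classical ones are tied to actin through catenins. Fibroblasts and other mesenchymal cells use Cdh2 (N-cadherin) and Cdh11 (OB-cadherin), whereas epithelial and pluripotent cells use Cdh1 (E-cadherin) together with Epcam, a calcium-independent adhesion protein that is a surface marker of pluripotent colonies. Loss of the former and gain of the latter is the adhesion side of the mesenchymal-to-epithelial transition, an early event when fibroblasts are reprogrammed. Cdh3 (P-cadherin) is a further classical cadherin of basal epithelia and placenta. Cdh13 (T-cadherin) has no transmembrane or cytoplasmic part, is held in the membrane by a lipid anchor and binds adiponectin.

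The labels were compared with marker genes before the levels were read. The summed FPKM of 8 fibroblast markers was 6270 in D0, 1737 in D3 and between 34.5 and 51.5 in D16S+, iPSCs and mESCs, where Lum was listed at 0 in both lines. The sum of 8 pluripotency markers was 2.25 in D0, with Dppa3 listed at 0, and 4818 in D16S+, 3581 in iPSCs and 4079 in mESCs. Dppa5a alone made up 3582 of it in D16S+, 2441 in iPSCs and 2698 in mESCs, and all 8 were at 1 FPKM or more in these libraries. Markers of 4 other cell types were also summed. Simple epithelial markers ranged from 65.9 in D0 to 1731 in D16S-, epidermal markers from 0.763 in D0 to 56.6 in D16S-, endothelial markers from 0.851 in D0 to 66.1 in mESCs and leukocyte markers from 13.1 in D6T- to 136 in D16S-. Of the leukocyte list, Ptprc stayed at or under 0.425 FPKM, and in D16S- Cd68 made up 115 and Csf1r 19.9 of the sum. Tyrobp and Fcer1g were highest in D0, at 3.38 and 1.84 FPKM. Of the endothelial list, Pecam1 made up 61.1 FPKM of the sum in mESCs. Tek was at 0.0624 FPKM in D0 and 16.5 in D9T-, its highest library. Kdr was highest in D3 (1.64) and Cldn5 in mESCs (3.60), and Emcn stayed at or under 0.253 in the 12 libraries. Total fragments were not used here. Depth as estimated from the steps of low values was lowest in D9T+ and 1.62-fold higher in D6T-, the deepest library.

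Promoter sequences are shown for Epcam and for partners of its protein, because the list of factors described further on, Snai1, Snai2, Zeb1, Zeb2 and the E proteins, is known for binding the E-box letters CACCTG. Sequences are from RefSeq (GRCm38.p6), run from 250 bases before to 50 bases after the gene start, and each matched a single place in mm9. Capitals mark CACCTG or CAGGTG, the same motif read on the other strand, and no other motif was searched. The partners are Cldn7, a tight-junction claudin that binds Epcam, and Spint2 and Spint1, membrane inhibitors of the serine proteases that cleave Epcam. The windows are chr17:88035069-88035368 (plus strand) for Epcam, chr11:69778673-69778972 (plus strand) for the second listed start of Cldn7, chr7:30066947-30067246 (minus strand) for Spint2 and chr2:119062846-119063145 (plus strand) for Spint1.
Epcam: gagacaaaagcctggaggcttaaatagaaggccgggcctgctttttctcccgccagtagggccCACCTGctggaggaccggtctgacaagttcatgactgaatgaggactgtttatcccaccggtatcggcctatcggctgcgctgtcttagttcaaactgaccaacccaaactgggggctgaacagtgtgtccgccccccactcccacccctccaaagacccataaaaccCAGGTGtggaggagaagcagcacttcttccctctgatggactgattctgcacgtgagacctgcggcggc
Cldn7: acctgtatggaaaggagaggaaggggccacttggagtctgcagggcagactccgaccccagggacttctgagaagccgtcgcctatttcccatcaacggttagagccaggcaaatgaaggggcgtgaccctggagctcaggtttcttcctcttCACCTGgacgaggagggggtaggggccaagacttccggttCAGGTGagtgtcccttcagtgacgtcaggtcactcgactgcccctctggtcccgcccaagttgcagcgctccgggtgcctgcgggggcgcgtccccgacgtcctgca
Spint2: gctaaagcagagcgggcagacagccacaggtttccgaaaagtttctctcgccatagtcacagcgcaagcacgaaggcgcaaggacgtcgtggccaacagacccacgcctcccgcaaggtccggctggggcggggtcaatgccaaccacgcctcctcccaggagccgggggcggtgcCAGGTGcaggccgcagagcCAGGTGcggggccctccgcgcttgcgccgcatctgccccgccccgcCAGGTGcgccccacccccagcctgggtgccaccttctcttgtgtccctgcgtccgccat
Spint1: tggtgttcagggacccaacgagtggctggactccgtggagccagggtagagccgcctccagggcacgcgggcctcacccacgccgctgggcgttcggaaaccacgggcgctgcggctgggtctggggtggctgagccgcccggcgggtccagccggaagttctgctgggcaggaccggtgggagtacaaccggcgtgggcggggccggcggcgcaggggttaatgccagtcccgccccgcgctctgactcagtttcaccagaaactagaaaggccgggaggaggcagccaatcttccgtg

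The Epcam window held the motif 2 times, starting 187 and 19 bases before the gene start. The Cldn7 window held it 2 times, at 97 and 57 bases before the start, while the window of its other listed start (chr11:69778031-69778330) did not hold these letters, and the Spint2 window 3 times, at 74, 55 and 9 bases before it. The Spint1 window did not hold these letters. Of 32851 promoters of this length, 20.2% held the motif at least 1 time and 2.88% at least 2 times. A promoter was matched for 10 of the 18 members and Epcam partners searched, among the members for Epcam, and 4 of their 12 promoters held the motif. These matches describe letters only, since binding was not measured in the table used here.

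To see how the fibroblast cadherins were lost, Cdh11 and Cdh2 were examined first. Cdh11, a type II cadherin of mesenchyme and bone, was at 81.5 FPKM in D0 and 55.2 in D3. Along the successful route it was at 13.8 FPKM in D6T-, 7.51 in D9T-, 2.81 in D12S+ and 0.463 in D16S+. It was at 0.617 FPKM in iPSCs and 0.120 in mESCs. Each library of the successful route was thus lower than the one before it. On the unsuccessful route Cdh11 was at 62.7 FPKM in D6T+, 28.9 in D9T+, 6.41 in D12S- and 4.72 in D16S-. These fractions held more Cdh11 than the partner fraction on all 4 days, and D6T+ was still near the level of D3. The lowest value, in mESCs, stood for about 11 fragments, with an exact Poisson interval (95%) of 0.0605 to 0.217 FPKM. Such intervals cover counting error only, and fragment numbers assume the longest coding transcript of the gene. As these are bulk libraries, fewer cells of a type and less RNA per cell cannot be told apart.

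Cdh2, the N-cadherin of fibroblasts and neural cells, was at 16.5 FPKM in D0 and 44.7 in D3, its highest library. It was then at 10.3 FPKM in D6T-, 3.39 in D9T-, 1.62 in D12S+ and 0.642 in D16S+. Established iPSCs were at 1.21 FPKM and mESCs at 1.02. The loss of Cdh2 therefore followed a 2.62-fold rise within the first 3 days, which Cdh11 did not share. The unsuccessful route held 23.1 FPKM in D6T+, 6.63 in D9T+, 3.03 in D12S- and 2.41 in D16S-. Both routes ended below D0, and D16S- remained 2.08-fold above D16S+. Folds here and below are on the log2(FPKM + 1) scale, on which differences of low genes come out too small.

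Next, the epithelial genes were followed. Cdh1, the E-cadherin of adherens junctions, was at 0.150 FPKM in D0, about 14 fragments (counting interval 0.0831 to 0.255). It was at 3.41 FPKM in D3 (counting interval 3.11 to 3.73), 6.05 in D6T-, 25.8 in D9T-, 85.8 in D12S+ and 129.9 in D16S+. It reached 202.8 FPKM in iPSCs, where it stood above 97.2% of the kept genes, and 136 in mESCs. Cdh1 was higher in each library of the successful route than in the one before it, and its highest and lowest libraries were 1350-fold apart as FPKM. On the unsuccessful route it was at 2.27 FPKM in D6T+, 8.27 in D9T+, 17.8 in D12S- and 44.6 in D16S-. The SSEA-1- cells of day 16 thus held 22.0% of the level in iPSCs, between the 12.7% of D9T- and the 42.3% of D12S+.

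Epcam was at 0.528 FPKM in D0 and 1.17 in D3, about 22 and 74 fragments. It was at 13.4 FPKM in D6T-, 55.2 in D9T- and 171 in D12S+, its highest library. It was at 150.3 FPKM in D16S+, 79.3 in iPSCs and 49.8 in mESCs. Epcam thus peaked during reprogramming and was lower in both established lines, whereas Cdh1 was highest in iPSCs. D6T+ held 2.84 FPKM, D9T+ 23.6, D12S- 56.8 and D16S- 74.6. The level in D16S- was close to that in iPSCs and above that in mESCs. As a ratio of FPKM within a library, Epcam to Cdh1 was 3.52 in D0, 0.344 in D3, 2.22 in D6T-, 2.14 in D9T-, 1.99 in D12S+, 1.16 in D16S+, 0.391 in iPSCs and 0.365 in mESCs. In D6T+ the ratio was 1.25, in D9T+ 2.85, in D12S- 3.18 and in D16S- 1.67.

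Cdh3 took another course. It was at 3.46 FPKM in D0 and 3.91 in D3, and at 0.211 in D6T-, its lowest library, with about 27 fragments (counting interval 0.137 to 0.304). It was then at 2.09 FPKM in D9T-, 13.96 in D12S+, 23.2 in D16S+, 18.3 in iPSCs and 16.8 in mESCs. The gene therefore went through a trough on day 6 before it exceeded its fibroblast level on day 12. The unsuccessful route held 1.21 FPKM in D6T+, 1.45 in D9T+, 3.80 in D12S- and 9.58 in D16S-. In D6T+ it was also below D3, by less than in D6T-. Cdh1, its neighbour on the chromosome, had no such trough in D6T-.

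Cdh13 belonged to neither pattern. It was at 10.8 FPKM in D0, 68.3 in D3, 106 in D6T-, 94.2 in D9T- and 85.7 in D12S+. It was at 13.2 FPKM in D16S+, 0.940 in iPSCs and 0.166 in mESCs, the last from about 14 fragments. Cdh13 was hence far above its fibroblast level for most of the successful route and was lost between D12S+ and the iPSC state. On the unsuccessful route it was at 142 FPKM in D6T+, 182 in D9T+, 218 in D12S- and 194 in D16S-. These 4 libraries were the 4 highest of the 12. D16S- exceeded D16S+ by 13.7-fold, and of all kept genes 9 were further below in D16S+.

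**Figure D1:**
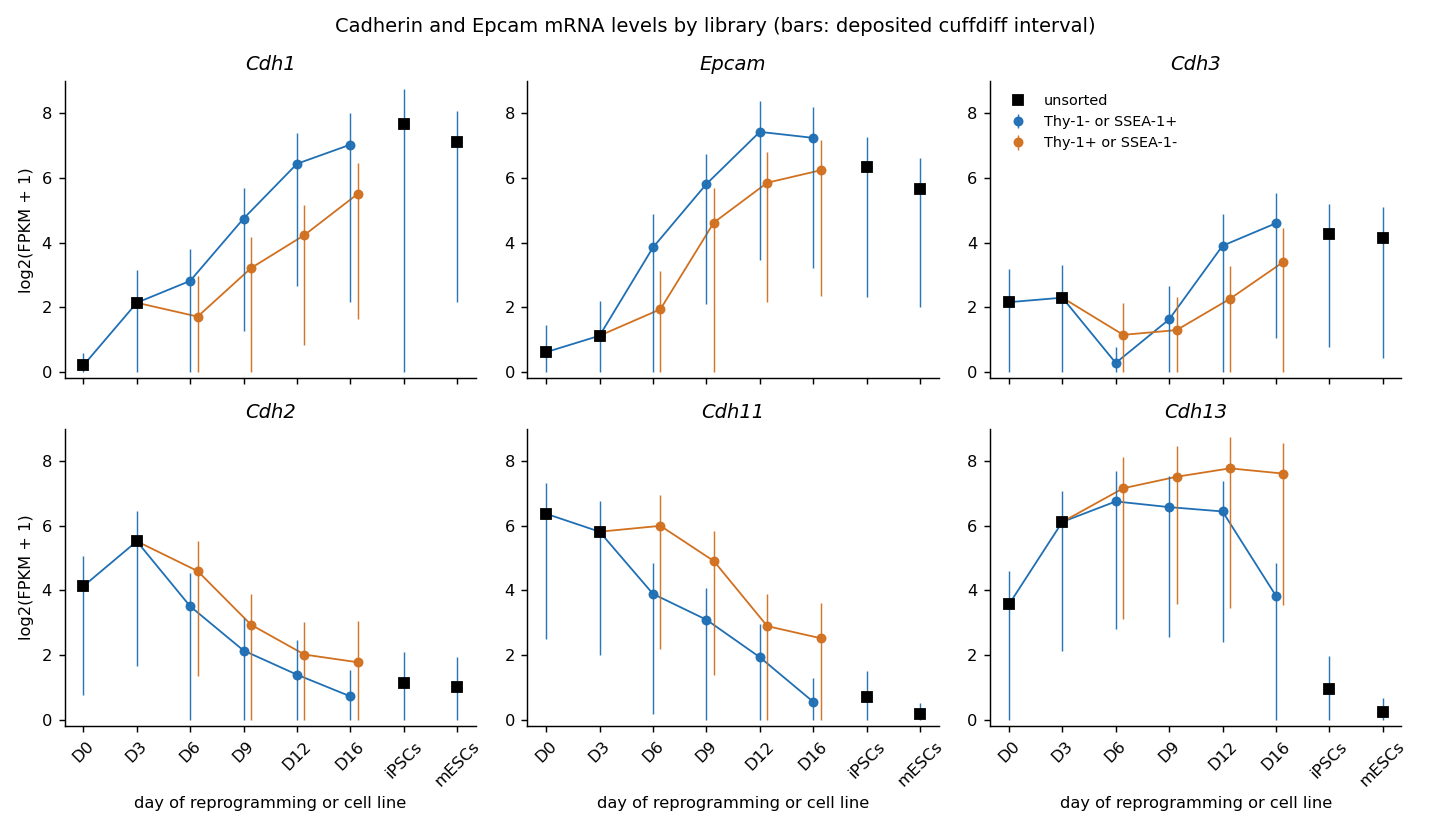
Levels of the 6 genes as log2(FPKM + 1), by day or cell line, 1 library per point: unsorted libraries as squares, Thy-1- or SSEA-1+ fractions in blue and Thy-1+ or SSEA-1- fractions in orange, with the deposited cuffdiff interval as bars. Cdh1 and Epcam climb from under 1 to above 5 on this scale, Cdh2 and Cdh11 lie below 3 from day 12 on both routes, and Cdh13 stays above 7 in the orange libraries while it drops to 3.83 in D16S+.

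The error behind these levels is a modelled one. No member value was listed at 0, and each lay inside its own cuffdiff interval, but these intervals were wide, with a median half-width of 100.1% of the FPKM among values of at least 10. When the 12 libraries were put in order for each gene, all 11 of 11 neighbouring pairs had overlapping intervals in all 6 genes, so no single rank in these orders is resolved. Of the 66 pairs of libraries, intervals lay apart in 16 for Cdh13, 13 for Epcam, 11 for Cdh11, 6 for Cdh1, 1 for Cdh2 and 1 for Cdh3. The share of all kept genes with intervals apart is not given, so such counts, here and below, stand without a background. For Cdh13 each of the 16 pairs set iPSCs or mESCs against D3 or a sorted library other than D16S+. For Cdh1 each of the 6 pairs held D0, whose interval ended at 0.515 FPKM. Cdh1 in iPSCs is not among them because its interval there ran from 0 to 427 FPKM. For Cdh2 the pair was D3 and D16S+, and for Cdh3 it was D6T- and D16S+.

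The genes lie on 3 chromosomes. In mm9 coordinates, 4 of the 6 are on chromosome 8. Cdh3 (chr8:109034791-109080808, plus strand) ends 46.4 kb before the start of Cdh1 (chr8:109127251-109194146, plus strand). Cdh11 (chr8:105156895-105309011, minus strand) lies on the same chromosome, as does Cdh13 (chr8:120807633-121848821, plus strand), which is the longest of the 6 with a span of 1041 kb. Cdh2 is on chromosome 18 (16747386 to 16967755, minus strand). Epcam (chr17:88035319-88050446, plus strand) is the shortest, with a span of 15.1 kb. Values were given per gene, so isoforms were not separated.

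The make-up of cadherin mRNA was then computed as the share of each of the 5 cadherins in their summed FPKM. The sum ranged from 112 FPKM in D0 to 256 in D16S-. In D0, Cdh11 made up 72.5% and Cdh2 14.7%. In D3, Cdh13 was the largest with 38.9%, followed by Cdh11 with 31.4%. Cdh13 then held 77.8% in D6T- and 70.8% in D9T-, where Cdh1 was next with 19.4%. In D12S+ Cdh1 and Cdh13 were level, with 45.2% and 45.1%. Cdh1 held 77.6% in D16S+, 90.6% in iPSCs and 88.3% in mESCs, each time with Cdh3 second. The fibroblast make-up was therefore not replaced by Cdh1 directly, since libraries dominated by Cdh13 lay between. On the unsuccessful route Cdh13 was the largest throughout, with 61.3% in D6T+, 80.04% in D9T+, 87.5% in D12S- and 76.0% in D16S-, and Cdh1 reached 17.5% in D16S-.

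**Figure D2:**
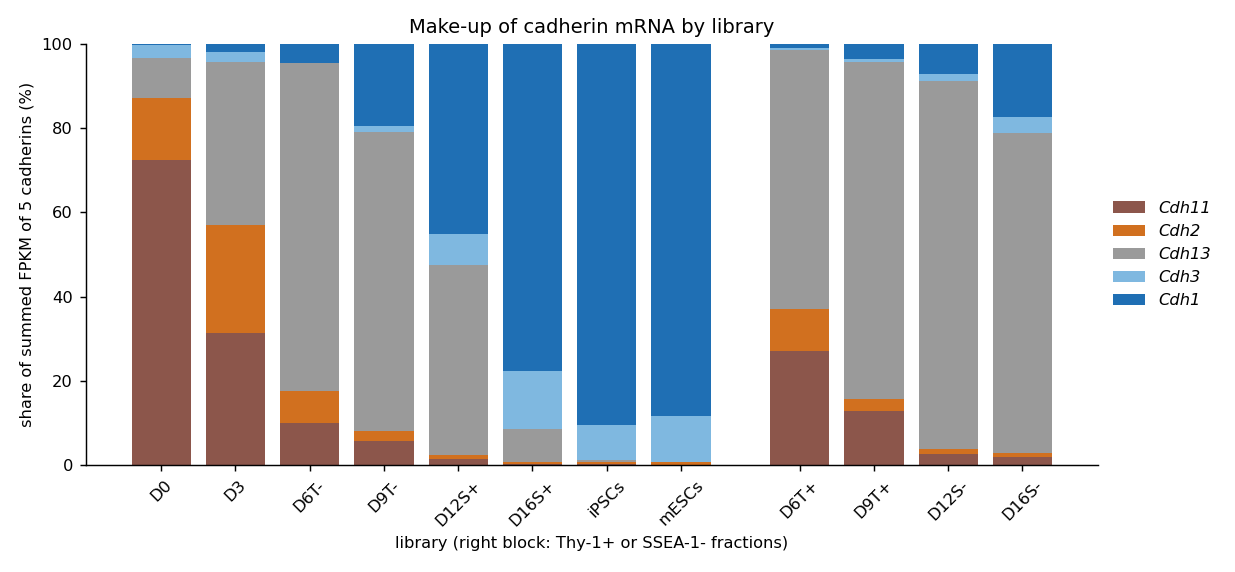
Share of each cadherin in the summed FPKM of the 5 cadherins (%), as stacked bars, 1 bar per library, with the Thy-1+ and SSEA-1- fractions in the right block. Cdh11 fills 72.5% of D0, Cdh13 77.8% of D6T- and 76.0% of D16S-, and Cdh1 90.6% of iPSCs.

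To place the switch between mesenchymal and epithelial adhesion genes, the difference of log2(FPKM + 1) within a library was taken for Cdh1 minus Cdh2 and for Epcam minus Cdh11. Such a difference hardly moves with the scaling of a library. Cdh1 minus Cdh2 was -3.92 in D0, -3.38 in D3, -0.69 in D6T-, 2.61 in D9T-, 5.05 in D12S+ and 6.32 in D16S+. It was 6.53 in iPSCs and 6.09 in mESCs. The sign turned between D6T- and D9T-, and D16S+ was near the value of the established lines. As FPKM, Cdh2 was 110-fold above Cdh1 in D0, and Cdh1 was 202-fold above Cdh2 in D16S+. On the unsuccessful route the difference was -2.88 in D6T+, 0.28 in D9T+, 2.23 in D12S- and 3.74 in D16S-.

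Epcam minus Cdh11 was -5.75 in D0, -4.69 in D3, -0.04 in D6T-, 2.72 in D9T-, 5.50 in D12S+ and 6.69 in D16S+. It was 5.63 in iPSCs and 5.50 in mESCs. Epcam and Cdh11 were hence level in D6T-, and the highest value on this scale was in D16S+. As FPKM, Epcam was 415-fold above Cdh11 in mESCs, 324-fold in D16S+ and 128-fold in iPSCs. Cdh11 in mESCs rested on about 11 fragments, so which library is highest depends on the scale. For Epcam minus Cdh11 the unsuccessful route gave -4.05 in D6T+, -0.28 in D9T+, 2.96 in D12S- and 3.72 in D16S-. Both differences were therefore positive in the SSEA-1- libraries, and in D16S- both lay between D9T- and D12S+. The gap between the fractions of a day was 2.20, 2.33, 2.83 and 2.58 for Cdh1 minus Cdh2 on days 6, 9, 12 and 16, and 4.02, 3.01, 2.54 and 2.97 for Epcam minus Cdh11.

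**Figure D3:**
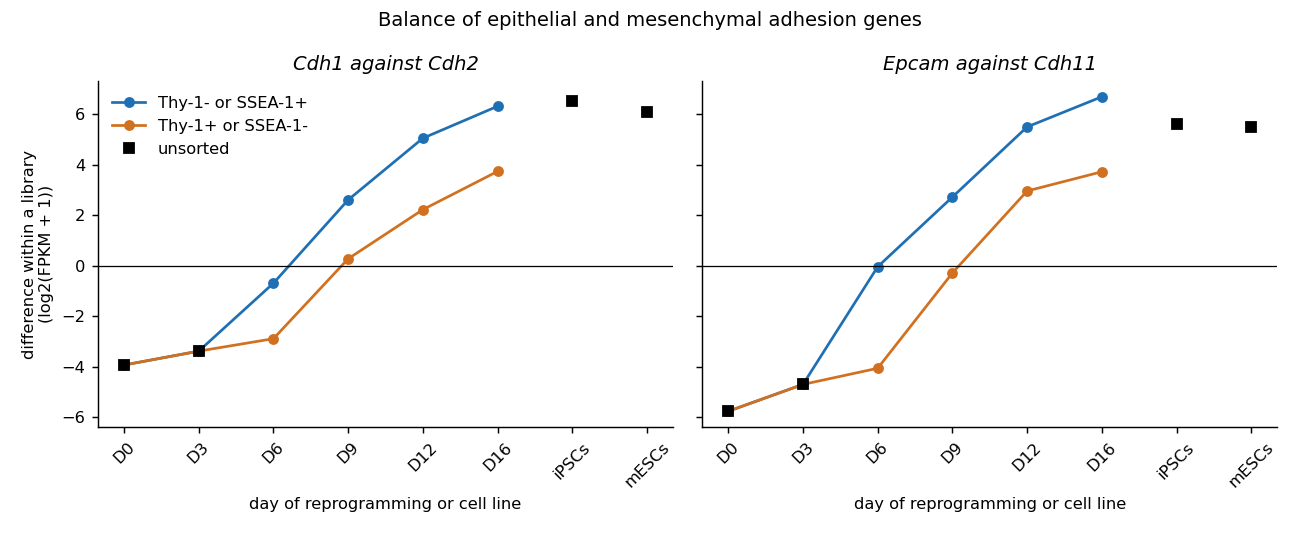
Difference of log2(FPKM + 1) within each library, for Cdh1 minus Cdh2 (left) and Epcam minus Cdh11 (right), by day or cell line, with symbols as in the plot of levels. The blue line runs from -3.92 in D0 to 6.32 in D16S+ on the left, and the orange line stays below it on every sorted day and ends at 3.74.

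The end points were then compared, which asks how far each gene moved from fibroblasts to pluripotent cells. With 1 library per condition a difference of at least 4-fold on the log2(FPKM + 1) scale was counted in place of a test. From D0 to iPSCs, Cdh1 rose by 7.47 (177-fold), Epcam by 5.72 and Cdh3 by 2.11, 3 of 6 genes, where 6.19% of the 14178 kept genes were higher. Cdh11 fell by 5.67 (51.0-fold), Cdh2 fell by 2.98 and Cdh13 fell by 2.60, the other 3, where 9.2% of kept genes were lower. The rise of Cdh1 was the 8th largest of all kept genes and that of Epcam the 52nd, and the fall of Cdh11 was the 62nd largest. The cuffdiff intervals of D0 and iPSCs lay apart for Epcam and Cdh11, with no share of all kept genes to set beside this. The median of all kept genes was 0.03 in this comparison.

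D16S+ and D16S- were each set against the same D0 library. In D16S+ the log2 differences were 6.83 for Cdh1, 6.63 for Epcam and 2.44 for Cdh3, each past the threshold, as 7.05% of kept genes were. Cdh11 fell by 5.82 and Cdh2 fell by 3.41, past the threshold as 7.96% were, while Cdh13 differed from D0 by 0.27. In D16S- the log2 differences were 5.31 for Cdh1, 5.63 for Epcam and 4.05 for Cdh13, past the threshold as 5.25% of kept genes were, and 1.25 for Cdh3, which was not. Cdh11 fell by 3.85 and Cdh2 fell by 2.36, where 2.95% were lower. These comparisons share their D0 library. Between iPSCs and mESCs 0 of the 6 genes differed by 4-fold, where 1.23% of kept genes were higher and 0.952% lower in iPSCs, and the member differences were between 0.12 for Cdh3 and 0.73 for Cdh13. Cdh13 and Cdh11 are low in both lines, and with a pseudocount of 0.1 they differed by 1.97 and 1.70, still short of 4-fold.

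To order the events, neighbouring libraries of the successful route were compared with a threshold of 2-fold, again as differences of log2(FPKM + 1). From D3 to D6T- the cells also change from unsorted to sorted, and from D9T- to D12S+ the sorting marker changes. From D16S+ to iPSCs they change from a sorted fraction to an established line. In these steps time and sorting cannot be told apart, nor can they from D3 to D6T+ or from D9T- to D12S- below. From D0 to D3, Cdh13 rose by 2.55, Cdh1 by 1.94 and Cdh2 by 1.39, where 5.76% of kept genes were higher, and no member was 2-fold lower, as 8.67% of kept genes were. From D3 to D6T-, Epcam rose by 2.73 (3.96% of kept genes higher), and Cdh3 fell by 2.02, Cdh2 fell by 2.01 and Cdh11 fell by 1.92 (6.62% lower). From D6T- to D9T-, Epcam rose by 1.96, Cdh1 by 1.93 and Cdh3 by 1.35 (5.06% higher), and Cdh2 fell by 1.37 (1.14% lower). From D9T- to D12S+, Cdh3 rose by 2.28, Cdh1 by 1.69 and Epcam by 1.62 (7.05% higher), and Cdh11 fell by 1.16 (3.3% lower). In the last steps the members past the threshold were all lower. From D12S+ to D16S+, Cdh13 fell by 2.61 and Cdh11 fell by 1.38 (5.32% lower), the former being the 17th largest fall of all kept genes, and no member was 2-fold higher (3.59% of kept genes were). From D16S+ to iPSCs, Cdh13 fell by 2.87 (7.77% lower), no member was 2-fold higher (4.38% of kept genes were), and the difference of Epcam was -0.91, short of the threshold. The cuffdiff intervals of the neighbouring libraries overlapped for all 6 genes in each of these steps.

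On the unsuccessful route, on the same log2 scale, Cdh13 rose by 1.04 from D3 to D6T+ (5.16% of kept genes higher) and Cdh3 fell by 1.15 (1.79% lower). From D6T+ to D9T+, Epcam rose by 2.68 and Cdh1 2.83-fold (4.92% higher), while Cdh2 fell by 1.66 and Cdh11 fell by 1.09 (1.38% lower). From D12S- to D16S-, Cdh1 rose by 1.28 and Cdh3 by 1.14 (2.03% higher), and no member was 2-fold lower (0.536% of kept genes were). The SSEA-1- cells of day 12 can also be set against D9T-, from which Cdh13 was 2.30-fold higher in D12S- (3.63% higher).

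The sorted fractions of a day were compared directly, to ask which adhesion genes separated the routes. Values are differences of log2(FPKM + 1), negative where the successful-route fraction held less. On day 6, Epcam was higher by 1.91 and Cdh1 by 1.11 in D6T- than in D6T+ (2.93% of kept genes 2-fold higher), and Cdh11 differed by -2.11 and Cdh2 by -1.09 (9.47% lower). On day 9, Cdh1 was higher by 1.53 and Epcam by 1.19 in D9T- (1.81% higher), and Cdh11 differed by -1.81 (6.45% lower). On day 12, Cdh1 was higher by 2.20, Cdh3 by 1.64 and Epcam by 1.57 in D12S+ (4.79% higher), and Cdh13 differed by -1.33 (3.03% lower). On day 16, Cdh1 was higher by 1.52, Cdh3 by 1.20 and Epcam by 1.00 in D16S+ (11.8% higher), with Epcam just inside the threshold. Cdh13 differed by -3.78, Cdh11 by -1.97 and Cdh2 by -1.06 (15.2% lower). Cdh1 and Epcam were past 2-fold on 4 of 4 days, Cdh11 on 3, Cdh2 and Cdh13 on 2, and each of these 5 genes had the same sign on all 4 days. Cdh3 differed by -0.87 on day 6 and 0.33 on day 9, so its sign was not the same on all days. The sorting marker changes between days 9 and 12, so the day and the marker cannot be told apart. In none of the 4 comparisons did the cuffdiff intervals of a member lie apart, and the share of all kept genes is not given.

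The 4 sorted days were also joined in 1 limma fit over the 8 sorted libraries with the day as a block, chosen after the values were seen. It asks whether the successful-route fraction differed from its partner by more than that difference varied between days, and the days, which differ in time and in sorting marker, stand in for replicates. Averaged over the days, Cdh1 was higher by 1.59 ± 0.19 (SE, limma adjusted p = 0.043) and Epcam by 1.42 ± 0.18 (limma adjusted p = 0.043), each in 4 of 4 days, where 2.06% of kept genes were called higher. Cdh11 differed by -1.71 ± 0.22 (limma adjusted p = 0.043) and Cdh2 by -0.89 ± 0.15 (limma adjusted p = 0.044), each lower in 4 of 4 days, where 5.97% were called lower. Cdh13 differed by -1.62 ± 0.55 (limma adjusted p = 0.10) and Cdh3 by 0.57 ± 0.42 (limma adjusted p = 0.36), which did not pass. These calls lay close to the threshold of 0.05. Without day 6, 9 or 16 limma called 0 of all 14178 kept genes in either direction, and so 0 of the 6 members. At an unadjusted p under 0.05 (limma) were 6, 5 and 5 of the members. Of all kept genes 1843, 1598 and 1525 were then higher and 2241, 2122 and 2308 lower. Without day 12 it called Cdh1 and Cdh11, where 0.212% of kept genes were called higher and 3.19% lower.

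Fibroblast and pluripotency markers moved with the fractions too. The fibroblast sum was 264 FPKM in D6T- against 2157 in D6T+, 255 in D9T- against 1883 in D9T+, 234 in D12S+ against 642 in D12S- and 34.5 in D16S+ against 432 in D16S-. The pluripotency sum was 9.64 FPKM in D6T- against 2.90 in D6T+, 152 in D9T- against 35.3 in D9T+, 2105 in D12S+ against 96.8 in D12S- and 4818 in D16S+ against 140 in D16S-. Dppa5a was the largest part of it on days 12 and 16, with 1365 FPKM in D12S+, 39.5 in D12S-, 3582 in D16S+ and 76.9 in D16S-. Thy1, the marker sorted on for days 6 and 9, is among the genes of the fibroblast sum. On those days that sum is thus not independent of the sort. Thy1 was at 3.24 FPKM in D6T- and 477 in D6T+, and at 3.72 in D9T- and 491 in D9T+. The simple epithelial sum ran the other way on day 16, with 868 FPKM in D16S+ and 1731 in D16S-. Krt8 (149 against 543 FPKM), Krt18 (259 against 664) and Krt19 (94.2 against 261) were the lower ones in D16S+, Cldn3 was near level (37.3 against 39.0), and Cldn4 (190 against 146) and Cldn6 (138 against 78.2) were higher there. The part of cell make-up in the member differences was not tested.

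**Figure D4:**
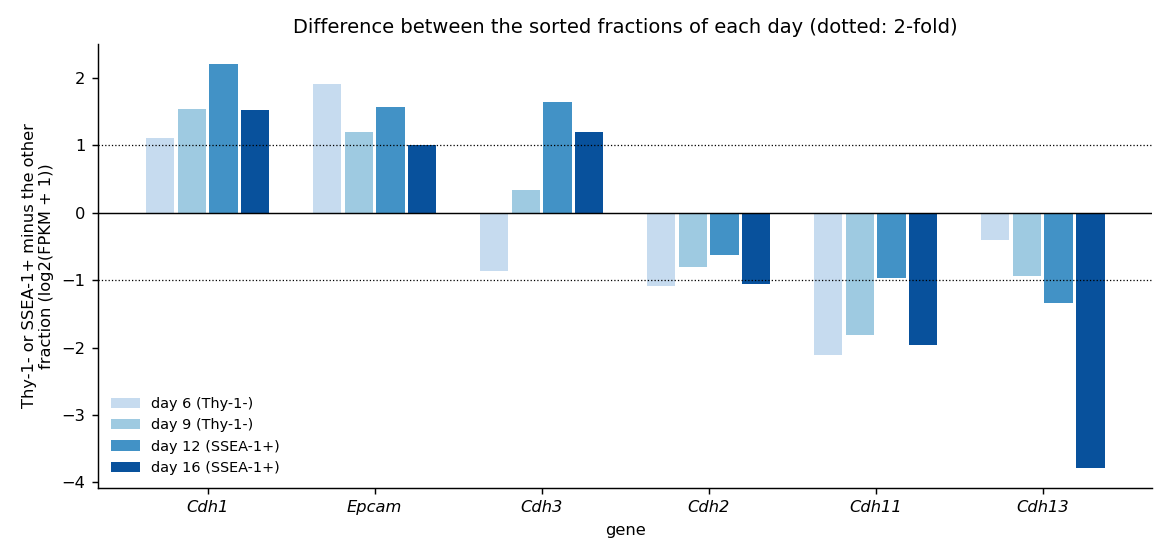
Difference between the sorted fractions of each day, Thy-1- minus Thy-1+ (days 6 and 9) or SSEA-1+ minus SSEA-1- (days 12 and 16), on the log2(FPKM + 1) scale, 1 bar per day and gene, with dotted lines at 2-fold. Cdh1 and Epcam are above 0 on 4 of 4 days, Cdh2, Cdh11 and Cdh13 below 0 on 4 of 4 days, and Cdh13 reaches -3.78 on day 16.

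Next, the genes around the members were described by lists. Of 18 other cadherins, 9 were kept, and from D0 to iPSCs 1 rose, 2 fell and 6 were within 4-fold, with a median difference of -0.91 against 0.03 for all kept genes, of which 6.19% rose and 9.2% fell by 4-fold. Cdh4 (R-cadherin, a relative of Cdh2) was at 0.494 FPKM in D0 and 7.31 in iPSCs, the library in which it was high, with 0.716 in mESCs. Cdh10 was at 6.36 FPKM in D0 and 0.0386 in iPSCs, and Cdh15, the cadherin of muscle precursors, at 7.23 and 0.264. Cdh5, the endothelial cadherin, was at 11.8 FPKM in D0 and 2.38 in iPSCs, short of the threshold, and was 2-fold lower in D16S+ (1.89) than in D16S- (5.77), as 15.2% of kept genes were. Cdh20 was at 4.51 FPKM in D3 and at or under 1.17 in D0, iPSCs and mESCs. The highest level among these 5 genes was thus the 11.8 FPKM of Cdh5 in D0.

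Of 16 catenins and junction partners, 15 were kept, of which 2 rose, 0 fell and 13 were within 4-fold from D0 to iPSCs (median 0.60), beside 6.19% of kept genes higher and 9.2% lower. Plekha7, which links adherens junctions to microtubules, was at 1.02 FPKM in D0, 31.5 in D12S+, 44.5 in iPSCs and 14.7 in D16S-. Arvcf, a relative of p120 catenin, was at 8.49 FPKM in D0 and 37.7 in iPSCs. Pvrl2 (nectin-2) dipped from 83.2 FPKM in D0 to 14.2 in D6T- and was at 113 in iPSCs. Ctnnd2 and the actin linker Vcl were 2-fold lower in D16S+ than in D16S-, at 0.446 against 4.19 FPKM and at 44.8 against 111, where 15.2% of kept genes were lower. The shared catenins were chosen for mention after their values were seen. Ctnnb1 (beta-catenin) stayed between 199 and 283 FPKM in the 12 libraries, and Ctnnd1 (p120 catenin) was at 34.3 in D0 and 80.5 in iPSCs. Both varied less over the libraries than any of the 6 members.

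Of 12 partners and processing enzymes of Epcam, 11 were kept, of which 5 rose (among them Cldn7, Spint1, Spint2 and St14), 1 fell (Cd44) and 5 were within 4-fold from D0 to iPSCs (median 0.69), where 6.19% of kept genes rose and 9.2% fell. Cldn7 was listed at 0 in D0 and was at 10.1 FPKM in D9T-, 84.8 in D16S+, 34.1 in D16S- and 36.0 in iPSCs. Spint2 was at 2.89 FPKM in D0, 50.6 in D6T- and 241 in iPSCs. Spint1 was at 1.34 FPKM in D0, 15.1 in D6T- and 63.3 in iPSCs. Both inhibitors rose from D0 to iPSCs, and whether the E-box motif bears on this was not tested. St14 (matriptase), the protease they inhibit, was at 0.686 FPKM in D0 and 52.1 in iPSCs. Cd44, the hyaluronan receptor, was at 86.0 FPKM in D0, 9.28 in D16S+ and 1.70 in iPSCs, and at 83.3 in D16S-. In this group Cd44 and Cldn7 were 2-fold apart between the day 16 fractions, as was Adam10, a list gene not named by the rule (11.8% of kept genes were higher in D16S+ and 15.2% lower).

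Of 8 factors that repress Cdh1, 8 were kept, of which 0 rose, 5 fell and 3 were within 4-fold from D0 to iPSCs (median -2.76), against 6.19% of kept genes higher and 9.2% lower. Twist2 was at 435 FPKM in D0, 48.9 in D3, 2.06 in D16S+ and 1.27 in iPSCs. In the Thy-1+ fractions it was at 310 FPKM in D6T+ and 233 in D9T+, and in D16S- at 48.4. Twist1 was at 39.8 FPKM in D0, 1.93 in D16S+ and 14.0 in D16S-. Snai2 (Slug) was at 10.5 FPKM in D0, 0.741 in D6T-, 10.1 in D6T+ and 0.225 in iPSCs. Tcf4, an E protein, was at 24.6 FPKM in D0 and 2.19 in iPSCs, and Zeb1 at 13.6 and 1.54. Between the day 16 fractions 5 of the 8 were 2-fold lower in D16S+ and 0 higher (median -1.65, against -0.02 for all kept genes, of which 15.2% were lower and 11.8% higher).

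Of 9 epithelial regulators, 9 were kept, of which 7 rose, 0 fell and 2 were within 4-fold from D0 to iPSCs (median 2.82), with 6.19% of kept genes higher and 9.2% lower. Elf3, an ETS factor of epithelia, was at 0.273 FPKM in D0, 14.4 in D6T-, 108 in D12S+ and 76.4 in iPSCs, and at 56.6 in D16S-. The splicing regulator Esrp1 was at 0.0120 FPKM in D0, 4.99 in D9T-, 32.7 in D16S+ and 5.31 in D16S-. Grhl2, an activator of Cdh1 in epithelia, was at 0.0286 FPKM in D0, 11.9 in D16S+ and 2.18 in D16S-. Grhl2 and Esrp1 were the list genes 2-fold higher in D16S+ than in D16S-, and Ehf, which the rule does not name, was 2-fold lower, where 11.8% of kept genes were higher and 15.2% lower. Esrp2 was at 0.563 FPKM in D0, 10.4 in D16S+ and 13.0 in D16S-, and Grhl3 at 0.314, 17.4 and 10.2 in the same libraries. The other 6 of the 9 genes were within 2-fold between these fractions.

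**Figure D5:**
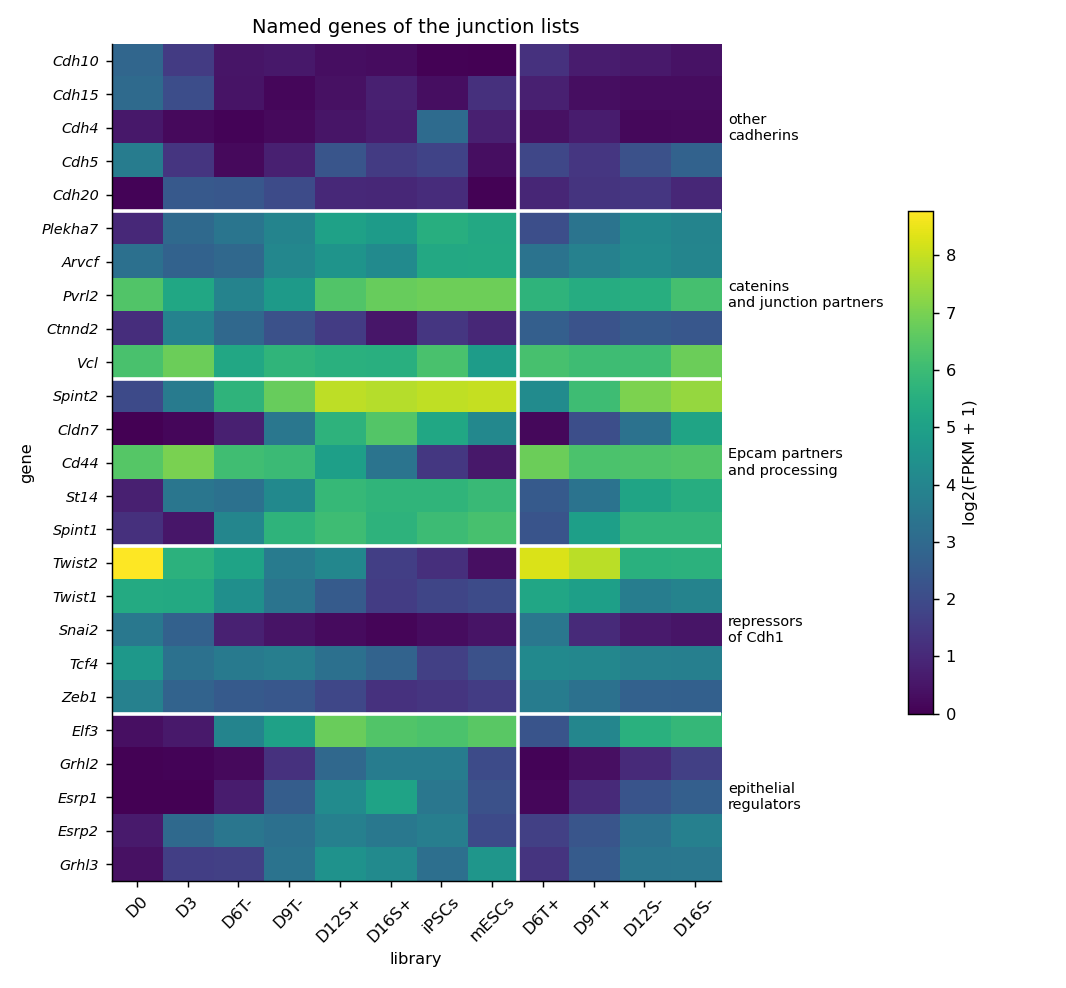
Levels of the named genes of the 5 lists as log2(FPKM + 1) (colour), genes in rows and libraries in columns, with white lines between lists and before the Thy-1+ and SSEA-1- fractions. Spint2, Elf3 and Plekha7 are brighter in the left block from D12S+ on than in D0, without a rise at every step. Twist2 goes from 435 FPKM in D0 to 48.9 in D3 and 1.27 in iPSCs, and is at 310 in D6T+.

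Finally, the members were compared with each other and with all other genes by the Pearson correlation of log2(FPKM + 1) over the 12 libraries. The libraries share the starting cells and days, and the values are a description. Among the members, Cdh1 and Cdh11 were the most opposed pair (r = -0.971), and Cdh2 and Cdh11 (r = 0.935) and Cdh1 and Epcam (r = 0.902) were the most alike pairs. Cdh3 was less like Cdh1 (r = 0.792), and Cdh13 was near 0 against Epcam (r = -0.106) and at -0.450 against Cdh1.

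Among 8804 genes with at least 10 FPKM in a library, Cdh1 was most like Tdrp (r = 0.982), Lsr (0.979), a receptor of tricellular junctions, and Rdm1 (0.979). The genes of this paragraph were picked for a like profile, so peaks and troughs shared with a member come with the choice. Epcam was most like Susd2 (0.990), a membrane protein, Slc37a1 (0.986) and the zinc finger factor Sall1 (0.979). Susd2 was at 0.318 FPKM in D0, 18.5 in D12S+ and 12.5 in iPSCs, so it also peaked before the established lines. Cdh3 was most like the fatty acid binding protein Fabp3 (0.975), the sodium pump subunit Atp1b1 (0.967) and the connexin Gjb5 (0.962), which shared its trough, with 1.21, 0.373 and 0.548 FPKM in D6T-. Cdh2 was most like Hs6st2 (0.980), a heparan sulphate sulphotransferase, Pde4dip (0.976) and Rap2a (0.975), and Cdh11 was most like Mid1 (0.994), Csgalnact1 (0.988) and Htr1b (0.988). Hs6st2 shared the D3 maximum of Cdh2, with 8.42 FPKM in D0 and 23.6 in D3. Cdh13 was most like C1qtnf1 (0.986), a secreted relative of adiponectin, the retinoic acid binding protein Crabp2 (0.981) and Msln (0.976), the surface protein mesothelin. Msln was at 38.6 FPKM in D0, 1051 in D16S-, 138 in D16S+ and 6.17 in iPSCs, and Crabp2 was at 51.1, 565, 79.0 and 7.72 in the same libraries.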

How the data were processed

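mRNA-Seq libraries of 12 conditions were analysed, 1 per condition, with groups from the titles in the labels. Per the labels the authors used a stranded TruSeq mRNA kit. Reads were mapped to mm9 with STAR, reads with over 2 mismatches or several loci were removed, and cuffdiff estimated the deposited FPKM values with their intervals; versions and annotation are not given in the sources used here. Removal of multi-locus reads lowers genes with near-identical copies. The 12 status columns were not used.

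Values were analysed as log2(FPKM + 1) with Python 3.11.15 and pandas 2.3.3 over the 14178 genes that reached 1 FPKM in any library. As each condition had 1 library, differences of at least 4-fold (end points) or 2-fold (steps, fractions) were counted beside the share of all kept genes. The 8 sorted libraries were also fitted with limma 3.58.1 (day as block, Benjamini-Hochberg adjustment), added after the values were seen. Named genes are the members, at most 5 per list among those 4-fold apart between D0 and iPSCs or 2-fold between fractions of a day, in order of the D0 to iPSCs difference, the 3 genes most like each member, and Thy1. Ctnnb1, Ctnnd1, Adam10, Ehf and single marker genes were named after their values were seen. A result on 1 gene is not reported here. Members and lists were chosen with earlier results of these data known. Positions are from GENCODE M1. Depth was estimated from low-value steps. Scripts were tested on simulated data. Alternatives covered pseudocount, scaling, thresholds, intervals, filter and correlation.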

Additional observations from a re-analysis of the deposited data

Results flagged for a closer look

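The difference of Cdh3 between the sorted fractions did not keep its sign over the days. On the log2(FPKM + 1) scale it was -0.87 on day 6 (D6T- 0.211 FPKM, D6T+ 1.21 FPKM), 0.33 on day 9 (D9T- 2.09 FPKM, D9T+ 1.45 FPKM), 1.64 on day 12 (D12S+ 13.96 FPKM, D12S- 3.80 FPKM) and 1.20 on day 16 (D16S+ 23.2 FPKM, D16S- 9.58 FPKM). Cdh3 was drawn out because the fractions differ in direction between days. Whether the days differ was not tested, as no fraction had a replicate, and the cuffdiff intervals of the fractions overlapped on each day.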

How the results depend on the processing

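Of 530 recomputed values, 459 stayed within the margin set for them (0.58 in log2, 1.5 times for a count) and 71 moved. Of the 324 recomputed member differences, 302 stayed, 22 moved, all of these with a pseudocount of 0.1, and 0 turned in sign. These values come from no test. In the limma fit over the 4 sorted days, added after the values were seen, leaving out 1 day gave 0 to 1 higher and 0 to 1 lower members, against 2 and 2 with all days. Of all kept genes it gave 0 to 30 higher and 0 to 452 lower, against 292 and 847 with all days. A pseudocount of 0.1 or scaling to the same total left the member counts at 2 and 2, and no member difference turned in sign in this fit. Scaling to the same total shifted the median of all genes by 0.16 for D0 to iPSCs, 0.30 for D0 to D16S+ and 0.19 for D0 to D16S-, and no count of members moved past the margin with it. When only differences with cuffdiff intervals apart were counted, D0 to iPSCs kept 1 higher and 1 lower gene. On that count D0 to D16S+ kept 2 higher and 1 lower, and D0 to D16S- 2 higher and 0 lower. The 4 fraction comparisons kept 0 higher and 0 lower. With a threshold of 4-fold, the fractions gave 0 higher and 1 lower member on day 6, 0 and 0 on day 9, 1 (Cdh1) and 0 on day 12, and 0 and 1 on day 16. Shares of all kept genes are not given here for intervals apart, for 4-fold between fractions or for a pseudocount of 0.1. Counts under these settings therefore stand without a background. A pseudocount of 0.1 gave 2 lower members on day 12. With it, Cdh1 minus Cdh2 became -6.05 in D0, 7.45 in D16S+ and 7.28 in iPSCs, and Epcam minus Cdh11 became -7.02, 8.06 and 6.79. It also changed the other cadherins from D0 to iPSCs to 2 higher and 5 lower, with a median of -2.26 against -0.91 in the main setting. Between the day 16 fractions it changed them to 3 higher and 3 lower. It further gave 1 lower catenin-list gene, and a median of 5.13 for the epithelial regulators. With no filter on low values, a separate setting, the median of the other cadherins from D0 to iPSCs was -0.057. Of the 3 genes most like a member, a Spearman correlation kept 1 for Epcam and 0 for the other 5 members. Without iPSCs and mESCs, 1 was kept for Cdh1, Cdh11, Cdh13 and Epcam. For the other moved values the cause was not tested. Depth limits the lowest levels: Cdh11 and Cdh13 in mESCs and Cdh1 in D0 rested on about 11 to 14 fragments.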
